A study of Mus musculus with 12 samples.

Results

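The prostaglandin synthesis and receptor genes described here are 10 genes that release arachidonate, turn it into prostaglandins, break prostaglandins down or sense them: Pla2g4a, Ptgs1, Ptgs2, Ptges, Ptgis, Ptgds, Hpgd, Ptger2, Ptger4 and Ptgfr. They are 10 of the 54532 mouse genes in the deposited table, and 8 of them were among the 12871 genes expressed highly enough to be tested (a minimum FPKM of 1 in 3 or more libraries), while Ptgds and Ptgfr were below that limit. Of the 10 genes, 9 were listed for their function. Ptgis was selected on its genotype differences in these same libraries, so those differences are described for it without a test. It is left out of the counts of genotype and medium comparisons, except where stated.

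The study examined the fate of bone marrow mesenchymal stem cells (MSCs) after loss of Chd7, a chromatin remodeler. RNA was sequenced from primary MSCs of 4-week-old C57BL/6 mice at passage 3, with 3 libraries in each of 4 groups. Controls carry the label WT and are Chd7fl/fl mice in the study's methods, and the libraries labelled Chd7 KO come from Prx1-cre;Chd7fl/fl mice, in which a promoter of early limb mesenchyme drives Cre, so that marrow cells of other origin keep the gene. Cells of each genotype were kept for 5 days in osteogenic medium, where ascorbic acid was at 50 µM, β-glycerophosphate at 10 mM and dexamethasone at 10 nM, or in adipogenic medium, where isobutylmethylxanthine, which blocks phosphodiesterases, was at 0.5 µM, dexamethasone at 1 µM and insulin at 10 µg/ml. All 4 groups therefore received dexamethasone, a glucocorticoid, and no untreated cells were among the libraries. The labels do not say whether replicates came from separate animals or cultures, so p-values measure the spread between libraries.

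Prostaglandins are made on demand from arachidonate, which cytosolic phospholipase A2 releases from membranes and which the cyclooxygenases COX-1 and COX-2 oxidise to an unstable intermediate. Terminal synthases turn that intermediate into PGE2, prostacyclin, PGD2 or others, a dehydrogenase inactivates them, and G protein-coupled receptors on nearby cells sense them. In bone, PGE2 is known for acting on osteoblasts and osteoclasts, and glucocorticoids are known for lowering COX-2 in many cells.

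FPKM (fragments per kilobase of gene, with depth divided out) is the deposited unit, and 17496343 to 21099588 fragments per library could be recovered on genes. Chd7, the targeted gene, was at 2.64, 2.67 and 2.77 FPKM in control and at 2.03, 2.35 and 2.28 FPKM in knockout-labelled osteogenic libraries. In adipogenic medium it was at 2.26, 1.81 and 2.23 FPKM in control and at 2.03, 2.35 and 2.48 FPKM in knockout-labelled libraries, so it was not lower there. Cre removes exon 2 alone, and these values count the whole gene, so they check the deletion only weakly and groups are named by their labels. Control adipogenic library 2 stood apart, with a Pearson's r across genes of 0.939 and 0.943 with the other control adipogenic libraries and of 0.964 to 0.969 with the knockout-labelled adipogenic ones. Differences of the members that passed with it are also given without it. Among the knockout-labelled adipogenic libraries, library 1 had an r of 0.980 and 0.981 with libraries 2 and 3, which had 0.992 with each other. Macrophage genes were abundant in every library, with summed FPKM of 14 markers from 8395 to 19726, whereas the stromal marker Thy1 was between 0.206 and 1.03 FPKM and another, Itgb1, between 317 and 412 FPKM. The cultures therefore did not show MSC markers alone, and fewer cells of a type cannot be told apart from less RNA per cell in any result that follows.

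Promoter windows of 4 members are shown because these genes carry the main differences: Pla2g4a and Ptgs2 differed between the media in their genotype difference, Ptges had the largest difference between the media in control libraries, and Ptger2 was the member lower in knockout-labelled osteogenic libraries. The genes shown and the motifs were chosen with the expression values known. RefSeq held promoters for 9 of the 10 members on GRCm38.p6. Each window runs 5′ to 3′ from 200 bases before to 30 bases after the RefSeq start on the gene's own strand. For Ptges that start lies 26566 bases into the gene as its span is listed below. Capitals mark matches on either strand. The core of the cAMP response element was searched as TGACG. The palindrome bound by C/EBP factors was searched as TTGCGCAA. The core of the glucocorticoid receptor motif was searched as AGAACA. The TATA box was searched as TATAAA.
Pla2g4a (chr1:149961261-149961490, minus strand): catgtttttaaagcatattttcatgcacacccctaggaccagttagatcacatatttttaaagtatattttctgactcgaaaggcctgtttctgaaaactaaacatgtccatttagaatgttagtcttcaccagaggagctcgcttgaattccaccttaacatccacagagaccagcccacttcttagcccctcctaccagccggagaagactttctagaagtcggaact
Ptgs2 (chr1:150099831-150100060, plus strand): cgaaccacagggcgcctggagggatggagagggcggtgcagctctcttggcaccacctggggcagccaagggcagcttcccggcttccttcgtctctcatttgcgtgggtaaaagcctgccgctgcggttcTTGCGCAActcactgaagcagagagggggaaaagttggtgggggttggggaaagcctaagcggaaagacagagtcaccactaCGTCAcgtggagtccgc
Ptges (chr2:30903268-30903497, minus strand): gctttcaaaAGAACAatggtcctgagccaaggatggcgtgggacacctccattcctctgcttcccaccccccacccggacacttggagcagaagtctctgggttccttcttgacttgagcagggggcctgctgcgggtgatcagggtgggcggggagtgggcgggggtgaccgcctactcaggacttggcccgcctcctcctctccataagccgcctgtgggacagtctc
Ptger2 (chr14:44987911-44988140, plus strand): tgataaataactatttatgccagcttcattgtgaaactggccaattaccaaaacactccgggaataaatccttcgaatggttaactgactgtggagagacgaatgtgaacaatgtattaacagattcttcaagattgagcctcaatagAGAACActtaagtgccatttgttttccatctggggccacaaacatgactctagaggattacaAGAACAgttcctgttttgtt
The Ptgs2 window held TTGCGCAA, which 0.149% of all 32851 promoter windows of this length hold, at 69 bases before the start. It also held TGACG, read on the opposite strand as its reverse complement, at position 14 after the start, a motif that 17.9% of windows hold. The Ptges window had AGAACA at 191 bases before its start and the Ptger2 window had it at 52 bases before and at position 11 after its start, against 14.7% of windows with at least 1 match. TATAAA, present in 10.7% of windows, was in none of the 4 shown, and no match of any of the 4 motifs was in the Pla2g4a window. None of the marked matches overlap each other. Part of the Ptgs2 window lies in an exon of Ptgs2os, a transcript from the opposite strand.

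Pla2g4a (ENSMUSG00000056220, chr1:149829618-149961290, minus strand, GRCm38) encodes cytosolic phospholipase A2, which releases arachidonate. It was at 7.82, 7.16 and 7.25 FPKM in control and at 8.42, 8.10 and 8.11 FPKM in knockout-labelled osteogenic libraries. In adipogenic medium it was at 11.0, 8.66 and 11.8 FPKM in control and at 6.31, 6.11 and 6.78 FPKM in knockout-labelled libraries. Control adipogenic libraries were the highest and knockout-labelled adipogenic libraries the lowest, and none of the 4 groups overlapped another. In adipogenic medium Pla2g4a was lower in the knockout-labelled libraries by a log2(FPKM + 1) difference of -0.63 (SE 0.0906, limma adjusted p = 0.000698), and the call held in each of the 6 fits that left out 1 library. In osteogenic medium the difference was 0.13 (95% interval -0.07 to 0.33, limma adjusted p = 0.440). The genotype difference itself differed between the media by -0.76 (SE 0.128, limma adjusted p = 0.00294), and this too held in all 12 fits without 1 library. Adipogenic medium raised Pla2g4a in controls by 0.44 (SE 0.0906, limma adjusted p = 0.00925) and lowered it in knockout-labelled libraries (a difference of -0.32, SE 0.0906, limma adjusted p = 0.0258), calls kept in 6 and in 1 of the 6 fits without 1 library.

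Ptgs1 (ENSMUSG00000047250, chr2:36230426-36252272, plus strand) encodes COX-1, the cyclooxygenase usually present without stimulation. Its levels were 6.80, 7.63 and 7.52 FPKM in control and 8.21, 8.18 and 9.49 FPKM in knockout-labelled osteogenic libraries. In adipogenic medium they were 3.15, 6.04 and 4.89 FPKM in control and 2.51, 3.09 and 3.32 FPKM in knockout-labelled libraries. Every adipogenic library was below every osteogenic library of its genotype, and the 2 adipogenic groups overlapped. The fall with adipogenic medium was -1.28 on the log2(FPKM + 1) scale in knockout-labelled libraries (SE 0.163, limma adjusted p = 0.000382) and -0.58 in controls (SE 0.163, limma adjusted p = 0.0316). The latter passed in 1 of the 6 fits without 1 library, whereas the former passed in all 6. The genotype difference in adipogenic medium was -0.49 (SE 0.163, limma adjusted p = 0.0419), and it passed in 1 of 6 such fits.

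Ptgs2 (ENSMUSG00000032487, chr1:150100031-150108227, plus strand) encodes COX-2, the inducible cyclooxygenase whose promoter window is printed above. Levels were 12.1, 12.4 and 12.3 FPKM in control and 15.5, 14.8 and 16.0 FPKM in knockout-labelled osteogenic libraries. In adipogenic medium they were 22.8, 9.91 and 27.3 FPKM in control and 8.48, 8.01 and 9.72 FPKM in knockout-labelled libraries. The knockout-labelled adipogenic libraries were the lowest of the 12, and control adipogenic library 2 lay just above them while the other controls of that medium were the highest of all. Ptgs2 fell with the knockout label in adipogenic medium by a log2(FPKM + 1) difference of -1.0 (SE 0.273, limma adjusted p = 0.0187). That call was lost without control adipogenic library 1 (-0.85, limma adjusted p = 0.0689), without control adipogenic library 3 (-0.73, limma adjusted p = 0.0629) and without knockout-labelled adipogenic library 2 (-0.95, limma adjusted p = 0.0603). Without control adipogenic library 2 the difference was -1.42 (limma adjusted p = 1.09e-06). In osteogenic medium the difference was 0.31 (95% interval -0.30 to 0.91, limma adjusted p = 0.567), although the groups did not overlap. With only the compared libraries in the fit this osteogenic difference passed (limma adjusted p = 0.00173). The genotype differences in the 2 media differed by -1.31 (SE 0.386, limma adjusted p = 0.0381), which passed in 1 of the 12 fits without 1 library, the fit without control adipogenic library 2, and reached an adjusted p of 0.0838 in another.

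Ptges (ENSMUSG00000050737, chr2:30889471-30929863, minus strand) encodes the inducible microsomal PGE2 synthase. It was at 4.43, 3.47 and 3.61 FPKM in control and at 3.92, 3.88 and 3.67 FPKM in knockout-labelled osteogenic libraries. In adipogenic medium the controls were at 20.9, 4.36 and 20.7 FPKM and the knockout-labelled libraries at 7.64, 3.32 and 3.81 FPKM. Control adipogenic libraries 1 and 3 stood far above the other 10 libraries, and control adipogenic library 2 lay within the range of the osteogenic controls. Adipogenic medium raised Ptges in controls by 1.50 on the log2(FPKM + 1) scale (SE 0.472, limma adjusted p = 0.0453), a call that the fit without control adipogenic library 2 alone kept among the 6 (2.18, limma adjusted p = 6.05e-05). The genotype difference in adipogenic medium was -1.27 (SE 0.472, limma adjusted p = 0.0619) and did not pass. It passed in 2 of the 6 fits without 1 library, and without control adipogenic library 2 it was -1.95 (limma adjusted p = 0.000102).

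Ptgis (ENSMUSG00000017969, chr2:167191805-167240604, minus strand) encodes prostacyclin synthase, an enzyme known from endothelial and smooth muscle cells. It was low, at 0.430, 0.324 and 0.463 FPKM in control and 1.15, 0.775 and 1.01 FPKM in knockout-labelled osteogenic libraries. In adipogenic medium it was at 0.190, 0.242 and 0.144 FPKM in control and 0.975, 1.07 and 1.17 FPKM in knockout-labelled libraries. These are 55, 136, 27 and 156 recovered fragments per group in that order. Knockout-labelled libraries were higher than controls in both media without overlap, by 0.49 (SE 0.0968) and 0.80 (SE 0.0968) on the log2(FPKM + 1) scale, but these are the values that chose the gene, and it passed the filter only through knockout-labelled libraries. The means were 0.977 against 0.406 FPKM in osteogenic and 1.07 against 0.192 FPKM in adipogenic medium, ratios of 2.41 and 5.59. Between the media Ptgis differed by -0.24 in controls (SE 0.0968) and by 0.07 in knockout-labelled libraries (SE 0.0968). These differences use the same library values that chose the gene, so no p-value is given for them. The control difference was -0.80 with a pseudocount of 0.1 and -1.03 with limma voom on recovered fragments.

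Summed levels of 9 endothelial markers were higher with the knockout label in both media, as Ptgis was. They were 6.66 to 6.89 FPKM in control and 12.1 to 13.1 FPKM in knockout-labelled osteogenic libraries, and 5.36 to 6.24 against 9.17 to 11.0 FPKM in adipogenic medium. The knockout-labelled sums were lower in adipogenic than in osteogenic medium, whereas Ptgis differed there by 0.07 on the log2(FPKM + 1) scale. Of the 9 markers 5 were tested, and 3 were higher with the knockout label in each medium and 0 lower. The sums of 5 smooth muscle markers were 743 to 784 FPKM in control and 983 to 1031 FPKM in knockout-labelled osteogenic libraries, and 859 to 1206 against 1364 to 1563 FPKM in adipogenic medium, with 2 of 5 and 4 of 5 markers higher and 0 lower. Beside these counts, 4.94% of all tested genes were higher and 4.15% lower with the knockout label in the osteogenic comparison. The adipogenic shares were 16.7% and 16.5%. The part of either marker list in the Ptgis difference was not tested.

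Ptgds (ENSMUSG00000015090, chr2:25466709-25470046, minus strand), which encodes the lipocalin-type PGD2 synthase, was close to absent. Osteogenic libraries had 0, 0 and 1 fragments in controls and 0 in each knockout-labelled library, and adipogenic libraries had 1, 5 and 0 in controls and 3, 7 and 3 in knockout-labelled ones. No library exceeded 7 fragments, equal to 0.225 FPKM. Knockout-labelled adipogenic libraries were all above the knockout-labelled osteogenic ones, by 0.19 on the log2(FPKM + 1) scale (exact permutation p = 0.1, two-sided, the smallest that 3 against 3 libraries allow), and the other 3 comparisons overlapped. So few fragments in so few libraries can neither show nor exclude a difference.

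Hpgd (ENSMUSG00000031613, chr8:56294585-56321043, plus strand) encodes the dehydrogenase that inactivates PGE2. It was at 2.42, 2.58 and 3.33 FPKM in control and at 4.43, 4.57 and 4.11 FPKM in knockout-labelled osteogenic libraries. In adipogenic medium it was at 0.651, 1.65 and 0.734 FPKM in control and at 1.04, 2.40 and 3.00 FPKM in knockout-labelled libraries. Knockout-labelled libraries lay above controls in osteogenic medium, and the 2 groups overlapped in adipogenic medium, where control library 2 again sat near the knockout-labelled ones. Hpgd fell with adipogenic medium, with a difference of -0.94 in controls (SE 0.243, limma adjusted p = 0.0228) and of -0.83 in knockout-labelled libraries (SE 0.243, limma adjusted p = 0.0292) on the log2(FPKM + 1) scale. The calls held in 1 and 2 of the 6 fits without 1 library. The genotype differences were 0.51 in osteogenic medium (95% interval -0.03 to 1.05, limma adjusted p = 0.240) and 0.62 in adipogenic medium (95% interval 0.08 to 1.17, limma adjusted p = 0.0723). The latter passed in 2 of the 6 fits without 1 library, and without control adipogenic library 2 it was 0.84 (limma adjusted p = 0.0127). With only the compared libraries in the fit the osteogenic difference passed (limma adjusted p = 0.00871).

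**Figure D1:**
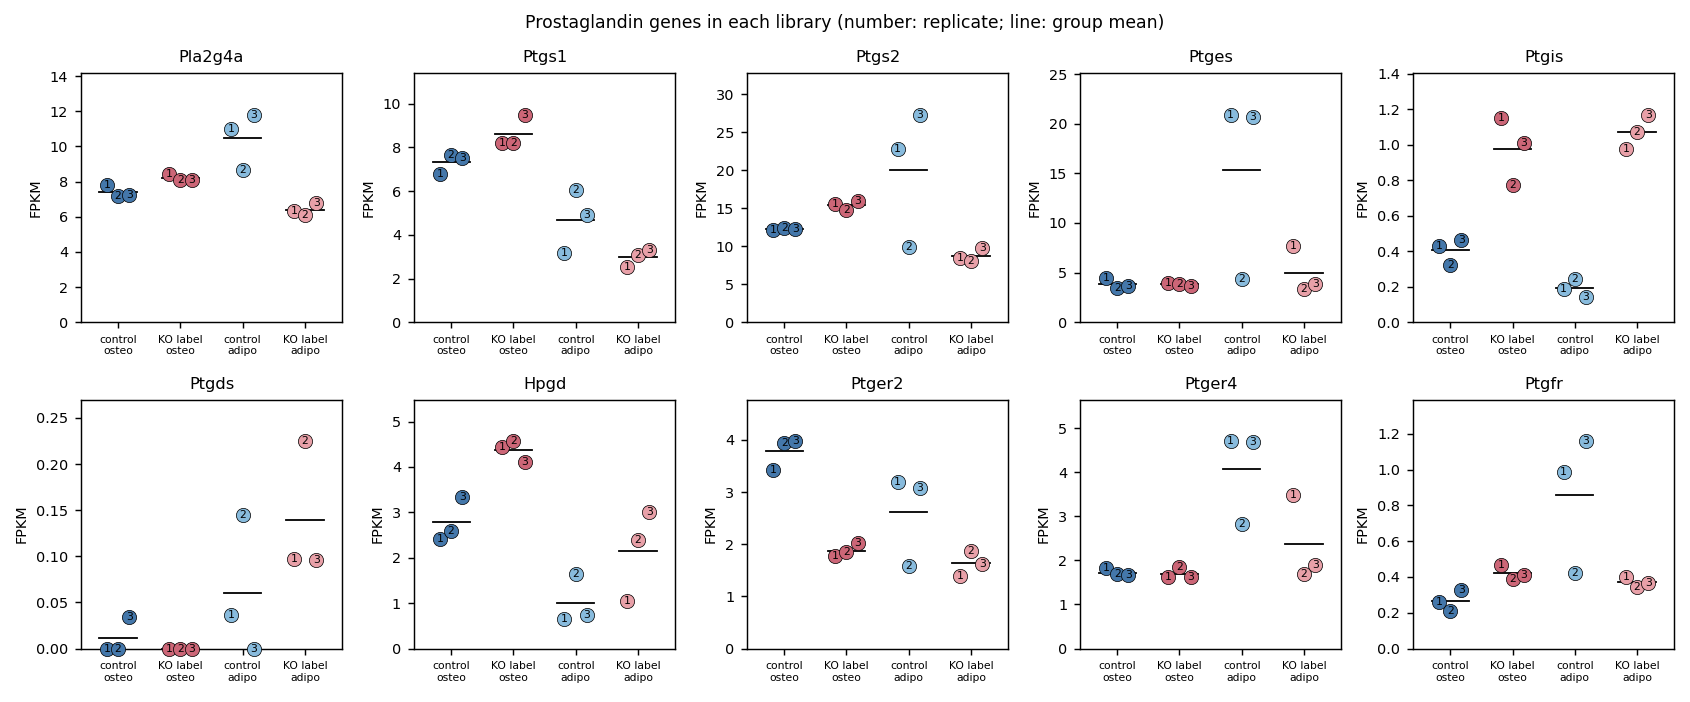
FPKM of each of the 10 genes (vertical axes, each from 0) in the 4 groups (horizontal axes, KO label for libraries labelled knockout). Points are libraries with their replicate number and lines are group means. Control adipogenic libraries 1 and 3 carry the high values of Ptgs2, Ptges, Ptger4 and Ptgfr, and control adipogenic library 2 lies closer to the knockout-labelled libraries for these genes.

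Ptger2 (ENSMUSG00000037759, chr14:44988195-45003820, plus strand) encodes EP2, a PGE2 receptor that raises cAMP. It was at 3.43, 3.94 and 3.98 FPKM in control and at 1.77, 1.85 and 2.02 FPKM in knockout-labelled osteogenic libraries. In adipogenic medium it was at 3.20, 1.58 and 3.07 FPKM in control and at 1.40, 1.87 and 1.63 FPKM in knockout-labelled libraries. The osteogenic groups were well apart, whereas in adipogenic medium control library 2 fell among the knockout-labelled ones. Ptger2 was the member that passed in osteogenic medium in the fit over all 12 libraries. It was lower with the knockout label by a log2(FPKM + 1) difference of -0.73 (SE 0.162, limma adjusted p = 0.0204), from a mean of 3.78 to 1.88 FPKM. With any of 5 of the 6 libraries left out (all but control osteogenic library 1) the adjusted p rose to between 0.0591 and 0.0796, while the difference stayed between -0.78 and -0.70 over the 6 fits. The difference in adipogenic medium was -0.43 (SE 0.162, limma adjusted p = 0.0665), and -0.65 without control library 2 (limma adjusted p = 0.000158). The 2 genotype differences differed by 0.30 (95% interval -0.20 to 0.81, limma adjusted p = 0.373), so a difference between the media was not shown.

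Ptger4 (ENSMUSG00000039942, chr15:5206661-5244187, minus strand) encodes EP4, the other PGE2 receptor that raises cAMP. In osteogenic medium its levels were 1.82, 1.69 and 1.66 FPKM in control and 1.62, 1.85 and 1.62 FPKM in knockout-labelled libraries. In adipogenic medium they were 4.71, 2.82 and 4.68 FPKM in control and 3.49, 1.70 and 1.90 FPKM in knockout-labelled libraries. All control adipogenic libraries exceeded all osteogenic ones, and the adipogenic groups overlapped through control library 2 and knockout-labelled library 1. Adipogenic medium raised Ptger4 in controls by 0.87 on the log2(FPKM + 1) scale (SE 0.196, limma adjusted p = 0.0131), a call kept in 4 of 6 fits without 1 library. The genotype difference in adipogenic medium was -0.61 (SE 0.196, limma adjusted p = 0.0376), kept in 2 of 6, and in osteogenic medium it was -0.01 (95% interval -0.45 to 0.42, limma adjusted p = 0.980).

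Ptgfr (ENSMUSG00000028036, chr3:151796502-151837630, minus strand) encodes the PGF2α receptor and was below the filter. It had 32, 24 and 39 fragments in control and 57, 48 and 51 in knockout-labelled osteogenic libraries, and 110, 60 and 127 in control and 51, 44 and 47 in knockout-labelled adipogenic libraries. Control adipogenic libraries 1 and 3 were again the highest. The log2(FPKM + 1) difference with the knockout label was 0.17 in osteogenic and -0.42 in adipogenic medium, without overlap, and each had an exact permutation p of 0.1 (two-sided), the smallest that 3 against 3 libraries allow (adjusted p = 0.2 over the 8 tests of Ptgfr and Ptgds).

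Strand was not stated for the counting, and some members share exonic bases with genes of the opposite strand. The largest share was 15.3% of the Ptger4 exonic length with the pseudogene Gm15937, which was at no more than 0.0901 FPKM, while 1.2% is shared with Ttc33, which was at 6.98 to 10.0 FPKM. The shares were 6.1% for Ptgis, 4.9% for Ptgfr, 4.7% and 2.8% for Ptger2 and 3.8% for Ptgs1, each with a gene at no more than 0.168 FPKM.

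Counted over the members, 1 of 7 passed for the genotype difference in osteogenic medium, against 9.09% of all tested genes (4.94% higher and 4.15% lower). In adipogenic medium 4 of 7 passed, all lower with the knockout label, against 33.2% of all genes (16.7% higher and 16.5% lower). Their median log2(FPKM + 1) difference was -0.61, beside -0.01 over all tested genes. For the difference of the genotype differences between the media 2 of 7 passed, both more negative in adipogenic medium, against 20.4% of all genes (10.9% higher and 9.58% lower). From osteogenic to adipogenic medium, 5 of 7 passed in controls, 3 higher and 2 lower, against 22.8% of all genes (10.5% higher and 12.3% lower). In knockout-labelled libraries 3 of 7 passed, all lower, against 27.9% of all genes (13.9% higher and 14.0% lower). Ptgis is left out of these medium counts too. The genotype contrasts in the 2 media use different libraries, but each medium contrast shares its libraries with them, so the counts are not independent. With each library rescaled to the same sum of FPKM (TPM), the share of called genes that were higher moved from 50.4% to 78.3% for the genotype difference in adipogenic medium, from 53.1% to 75.3% for its difference between the media, and from 46.1% to 30.7% and 49.7% to 65.4% for the medium in control and in knockout-labelled libraries. Pla2g4a and Ptgs2 were still called lower in adipogenic medium on that scale, at -0.46 and -0.82, and Ptgs1 and Ptger4 were not.

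**Figure D2:**
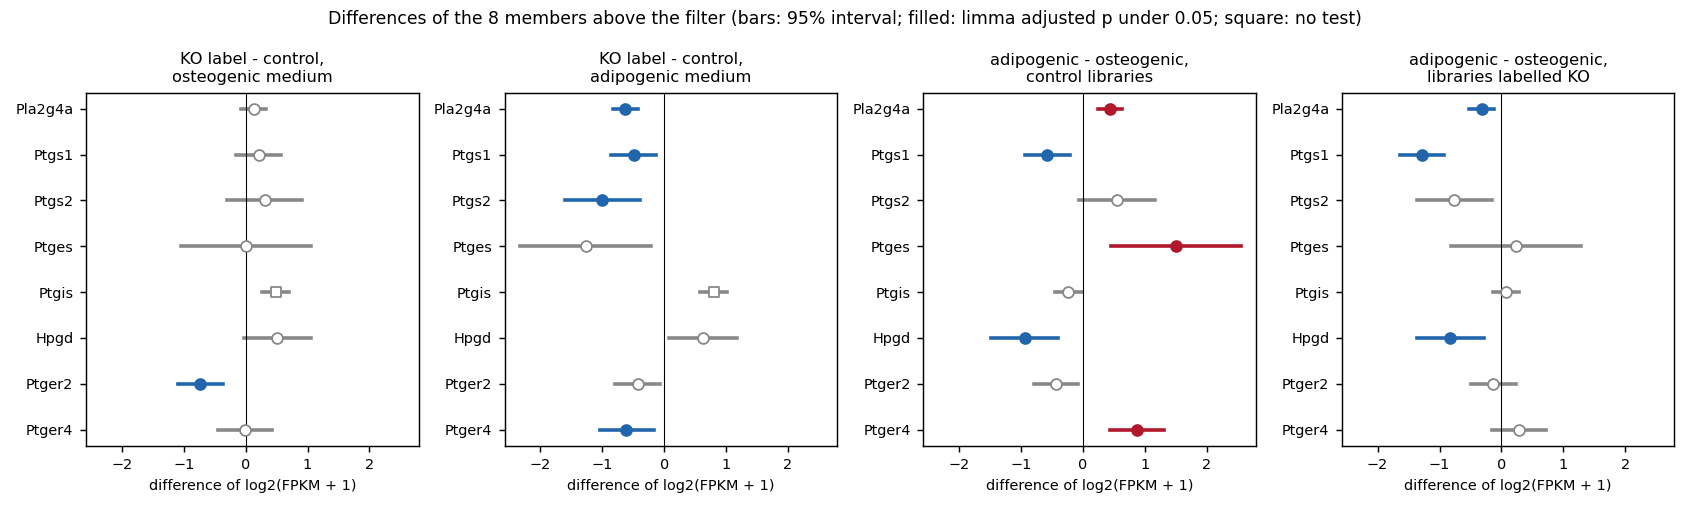
Differences of log2(FPKM + 1) (horizontal axes) of the 8 members above the filter (vertical axes) in 4 comparisons, with 95% intervals as bars. Filled points passed at a limma adjusted p of 0.05, red higher and blue lower, and open points did not. Squares mark Ptgis in the genotype comparisons, and its open points in the medium comparisons are likewise not read as a test. Pla2g4a, Ptgs1, Ptgs2 and Ptger4 are filled below 0 in adipogenic medium, and Ptger2 alone is filled in osteogenic medium.

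Control adipogenic library 2 set how large several of these differences were. Without it, 6 of 7 members passed for the genotype difference in adipogenic medium, with Ptges, Ptger2 and Hpgd added and Ptgs1 lost (-0.32, limma adjusted p = 0.0840), while the number of genes passing over the whole table rose from 4276 to 6569. This was 51.0% of the tested genes. For the difference between the media 5 of 7 then passed, against 42.2% of all genes. Without the library the difference of Pla2g4a was -0.75 for the genotype in adipogenic medium, -0.88 between the media and 0.56 for the medium in controls. That of Ptger4 was -0.80, -0.78 and 1.06 in the same order. For the medium in controls it was -0.75 for Ptgs1 and -1.15 for Hpgd. Ptgs2 then also rose with adipogenic medium in controls, by 0.97 (limma adjusted p = 1.52e-05), against 0.55 (SE 0.273, limma adjusted p = 0.167) with all libraries. That library had 227 FPKM of Adgre1, 1 of the 14 macrophage markers, against 1171 and 1136 FPKM in the other control adipogenic libraries. The sum of all 14 differed less, at 10336 FPKM against 19726 and 19610 FPKM. Whether macrophage RNA has a part in these member differences was not tested. Knockout-labelled adipogenic library 1 also stood apart from libraries 2 and 3 of its group. It had Ptges at 7.64 against 3.32 and 3.81 FPKM, Ptger4 at 3.49 against 1.70 and 1.90 FPKM, and Hpgd at 1.04 against 2.40 and 3.00 FPKM. Over the 6 fits without 1 library, the adipogenic genotype difference ran from -0.83 to -0.47 for Ptger4 and from 0.42 to 0.91 for Hpgd.

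**Figure D3:**
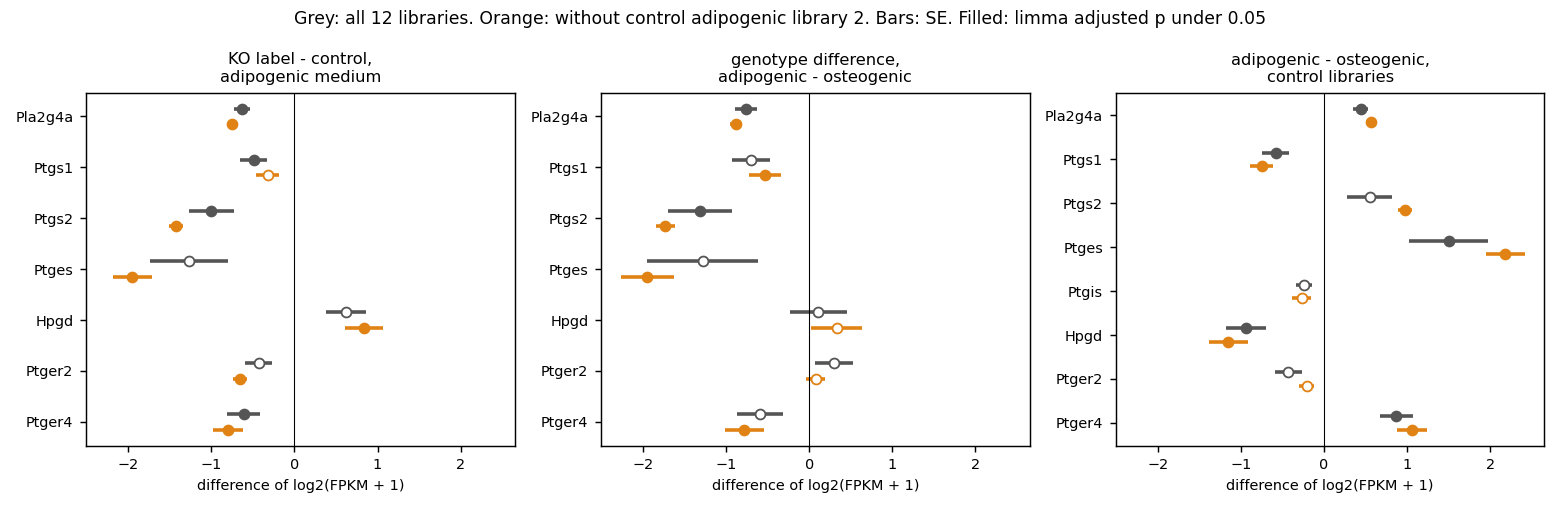
Differences of log2(FPKM + 1) (horizontal axes) of the members (vertical axes) with all 12 libraries in grey and without control adipogenic library 2 in orange, with standard errors as bars and filled points for a limma adjusted p under 0.05. Pla2g4a, Ptgs2, Ptges and Ptger4 move further from 0 without the library in all 3 comparisons, and Ptgs1 loses its call in the genotype comparison.

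The rest of the pathway was followed in 43 other genes, of which 42 were found in the table and 29 were tested. In osteogenic medium 6 of the 29 passed, 5 higher and 1 lower with the knockout label, beside 9.09% of all tested genes (4.94% higher and 4.15% lower). Prxl2b, a PGF2α synthase, was at 17.5 FPKM on average in controls and rose by 0.70 (SE 0.118, limma adjusted p = 0.00558), and Slco2a1, which carries prostaglandins into cells, rose by 0.51 (SE 0.113, limma adjusted p = 0.0202). The Slco2a1 call was lost in each of the 6 fits without 1 library (limma adjusted p of 0.0543 to 0.0788), where the difference stayed between 0.49 and 0.54. Alox5, the 5-lipoxygenase of leukotriene synthesis, was 0.66 higher, at a mean of 1.97 against 0.88 FPKM in controls. Its control means were below the 1 FPKM of the filter in both media, so it was tested mainly through knockout-labelled libraries, where it is high. No p-value is therefore given for its genotype differences, although it is in the counts. Its partner Alox5ap fell by 0.37 on the log2(FPKM + 1) scale (limma adjusted p = 0.00254). Ptgfrn, a partner of the PGF2α receptor, rose by 0.38 and the carbonyl reductase Cbr1 by 0.18 (limma adjusted p = 0.00108 and 0.0330). The Cbr1 call held in 1 of the 6 fits without 1 library (limma adjusted p of up to 0.124), and the calls of Prxl2b, Alox5ap and Ptgfrn held in all 6.

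In adipogenic medium 15 of the 29 passed, 6 higher and 9 lower, beside 33.2% of all tested genes (16.7% higher and 16.5% lower). The 6 include Alox5 and Tbxa2r, the thromboxane receptor, at control means of 0.66 and 0.473 FPKM. Tbxa2r passed the filter only through the knockout-labelled adipogenic libraries, where it was highest, and Alox5 mainly through knockout-labelled ones. Ptgir, the prostacyclin receptor, was at 7.25, 2.69 and 6.70 FPKM in control and 1.68, 0.811 and 0.600 FPKM in knockout-labelled libraries. The groups did not overlap, and the difference was -1.64 (SE 0.283, limma adjusted p = 0.00188). Abcc4, which exports prostaglandins, was at 17.2, 6.45 and 18.2 FPKM in control and 5.27, 4.41 and 4.40 FPKM in knockout-labelled libraries (-1.28, SE 0.286, limma adjusted p = 0.00764). Here too control library 2 was the low control, and without it the differences were -2.01 for Ptgir and -1.72 for Abcc4. Ptgr1, a reductase of prostaglandin breakdown, fell by 0.95 (limma adjusted p = 0.0180) and Cysltr1, a receptor for cysteinyl leukotrienes, by 1.01 (limma adjusted p = 0.000441) on the log2(FPKM + 1) scale. Mgll, a lipase that frees arachidonate from 2-arachidonoylglycerol, rose by 1.24 (SE 0.343, limma adjusted p = 0.0203), and Akr1c18, a reductase, by 0.85 (limma adjusted p = 0.00523). With 1 library left out, the Mgll call held in 2 of 6 fits and the Ptgr1 call in 3 of 6, with adjusted p of up to 0.0759 and 0.0681, whereas the other 4 calls held in all 6. Without control adipogenic library 2 the differences were 1.77 for Mgll, -1.35 for Ptgr1, -1.19 for Cysltr1 and 0.68 for Akr1c18.

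**Figure D4:**
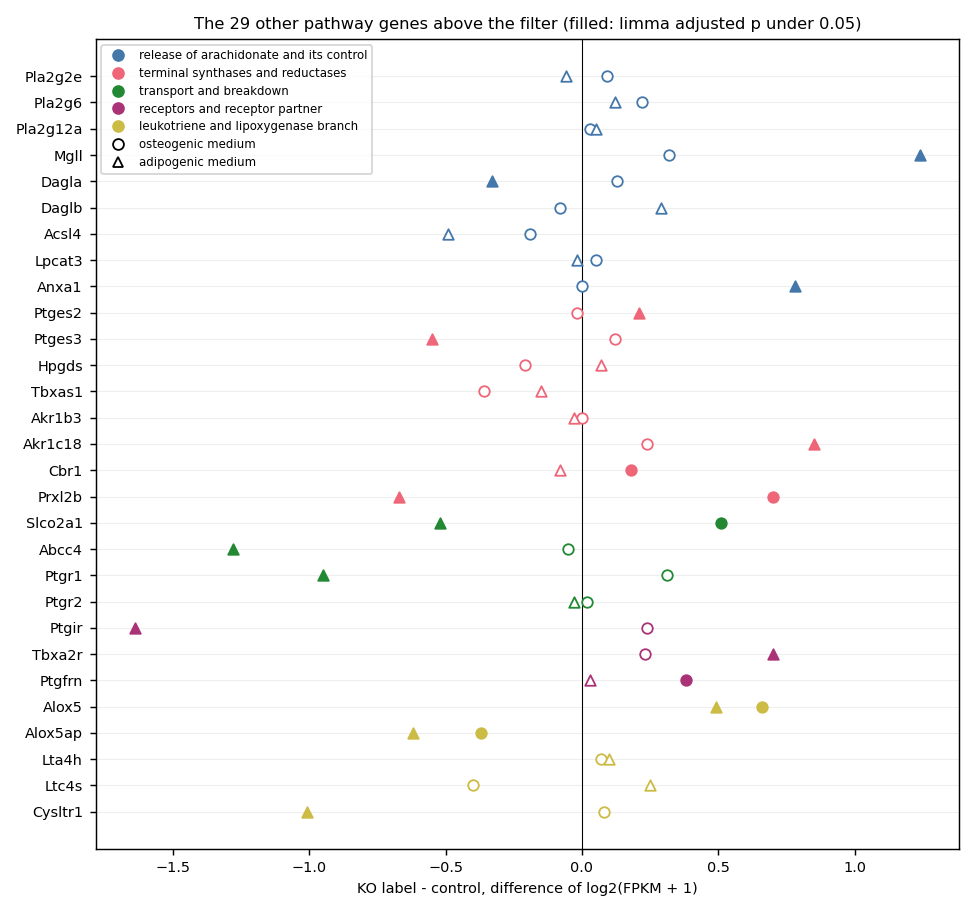
Genotype differences of log2(FPKM + 1) (horizontal axis) of the 29 other pathway genes above the filter (vertical axis), circles for osteogenic and triangles for adipogenic medium, coloured by role and filled where the limma adjusted p was under 0.05. Ptgir, Abcc4, Cysltr1 and Ptgr1 lie furthest to the left in adipogenic medium, and Prxl2b and Slco2a1 are filled on opposite sides of 0 in the 2 media.

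By role, and beside the 33.2% of all genes called, 3 of 4 tested genes of transport and breakdown passed in adipogenic medium, all lower, as did 4 of 8 synthases and reductases, 2 higher and 2 lower. Of 9 genes of arachidonate release 3 passed, 2 higher and 1 lower, of 3 receptors and partners 2, 1 in each direction, and of 5 leukotriene genes 3, 1 higher and 2 lower. The receptor called higher was Tbxa2r and the leukotriene gene called higher was Alox5, with the limit of the filter given above. The genotype difference depended on the medium for 12 of the 29, 2 more positive and 10 more negative in adipogenic medium, beside 20.4% of all tested genes (10.9% higher and 9.58% lower). Among them were Ptgir (-1.88, limma adjusted p = 0.00933), Prxl2b (-1.37, limma adjusted p = 0.000496), Ptgr1 (-1.26, limma adjusted p = 0.0355), Cysltr1 (-1.09, limma adjusted p = 0.00348) and Slco2a1 (-1.03, limma adjusted p = 0.00186). Anxa1, known as a glucocorticoid-induced inhibitor of arachidonate release, was more positive, by 0.78 (limma adjusted p = 3.26e-05). The Ptgr1 call held in 1 of the 12 fits without 1 library, the fit without control adipogenic library 2 (-1.66, limma adjusted p = 3.33e-07), with adjusted p of up to 0.0754 in the others, and the other 5 calls held in all 12. Anxa1 was at 224 to 230 FPKM in all osteogenic libraries, 235 to 250 in control adipogenic libraries and 395 to 424 in knockout-labelled adipogenic libraries. The other of the 2 more positive genes was Tbxa2r, which passed the filter only through knockout-labelled adipogenic libraries.

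From osteogenic to adipogenic medium 14 of the 29 passed in controls, 7 in each direction, and 16 in knockout-labelled libraries, 4 higher and 12 lower, beside 22.8% and 27.9% of all tested genes. In controls Ptgir rose by 1.39 (limma adjusted p = 0.00898), Slco2a1 by 1.20 (limma adjusted p = 0.000213), Ptgr1 by 0.89 (limma adjusted p = 0.0338) and Prxl2b by 0.88 (limma adjusted p = 0.00130), while Ltc4s, the leukotriene C4 synthase, fell by 1.48 and Tbxas1, the thromboxane synthase, by 0.80 on the log2(FPKM + 1) scale (limma adjusted p = 0.00420 and 0.00128). The Ptgr1 call held in 1 of 6 fits without 1 library (limma adjusted p of up to 0.123), and the other 5 calls held in all 6. Without control adipogenic library 2 the differences were 1.76 for Ptgir, 1.36 for Slco2a1, 1.30 for Ptgr1, 1.00 for Prxl2b, -1.87 for Ltc4s and -0.86 for Tbxas1. In knockout-labelled libraries Tbxa2r was 0.80 higher in adipogenic medium, at 0.317 to 0.486 FPKM in osteogenic and 1.28 to 1.47 FPKM in adipogenic medium. It passed the filter only through those adipogenic libraries, so no p-value is given for it, although it is in the count of 16. Anxa1 and Akr1c18 rose there by 0.86 each (limma adjusted p = 1.16e-06 and 0.00526). Dagla, which makes 2-arachidonoylglycerol, fell by 0.73 (limma adjusted p = 6.52e-05), Cysltr1 by 0.65 (limma adjusted p = 0.00554) and Ltc4s by 0.84 (limma adjusted p = 0.0332) on the log2(FPKM + 1) scale. The Ltc4s call was lost in each of the 6 fits without 1 library (limma adjusted p of 0.0710 to 0.0968), and the calls of Anxa1, Akr1c18, Dagla and Cysltr1 held in all 6. All 5 tested leukotriene genes were called lower there with all libraries.

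Beside the members stand 12 glucocorticoid-induced genes, chosen with earlier results of these data known. Their summed FPKM was 432 to 463 in control and 328 to 332 in knockout-labelled osteogenic libraries, and 370 to 383 against 799 to 823 in adipogenic medium. For the genotype difference 0 of 12 were higher and 6 lower in osteogenic medium, and 11 higher and 0 lower in adipogenic medium. Among all tested genes, 4.94% were higher and 4.15% lower in the osteogenic comparison. The adipogenic shares were 16.7% and 16.5%, and both pairs also stand beside the marker counts below. Knockout-labelled adipogenic libraries, with the highest of these sums, were those with the lowest Pla2g4a and Ptgs2. Control adipogenic library 2 had a sum of 376 with Ptgs2 at 9.91 FPKM. Control adipogenic libraries 1 and 3 had sums of 370 and 383 with Ptgs2 at 22.8 and 27.3 FPKM. The macrophage sum was 15054 to 15553 FPKM in control and 16501 to 16972 FPKM in knockout-labelled osteogenic libraries, and 19726, 10336 and 19610 FPKM in control against 8395 to 9821 FPKM in knockout-labelled adipogenic libraries. Of the 14 macrophage markers 3 were higher and 8 lower with the knockout label in adipogenic medium, and 1 and 3 in osteogenic medium. Of 5 neutrophil markers, summed at 65.9, 2.53 and 86.0 FPKM in control against 1.22 to 2.05 FPKM in knockout-labelled adipogenic libraries and 3.71 to 6.07 FPKM in osteogenic ones, S100a8 carried nearly all and S100a9 was listed at 0 in every library. Control adipogenic libraries 1 and 3 were thus the high ones, as for Ptgs2 and Ptges. The sum of 5 megakaryocyte markers was 85.6 to 98.8 FPKM in control and 23.4 to 26.9 FPKM in knockout-labelled adipogenic libraries, most of it Pf4, and 68.6 to 86.3 FPKM in osteogenic ones. The sum of 8 adipocyte markers was 190 to 235 against 309 to 369 FPKM in adipogenic medium and 348 to 362 against 247 to 263 FPKM in osteogenic medium, and Adipoq, which defines mature adipocytes, was at no more than 0.277 FPKM in the adipogenic libraries. The sum of 8 osteoblast markers was 1725 to 1979 against 2015 to 2192 FPKM in adipogenic and 1864 to 2160 against 2709 to 2951 FPKM in osteogenic medium. Of these 8 markers 5 were higher and 0 lower with the knockout label in adipogenic medium. In osteogenic medium 1 was higher and 1 lower, with a median log2(FPKM + 1) difference of -0.14. The sum of 10 stromal markers was 481 to 501 against 548 to 587 FPKM in adipogenic and 448 to 456 against 507 to 531 FPKM in osteogenic medium. Of the 8 stromal markers tested, 4 were higher and 2 lower with the knockout label in adipogenic medium, and 4 higher and 0 lower in osteogenic medium. The part of each list in the member differences was not tested.

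**Figure D5:**
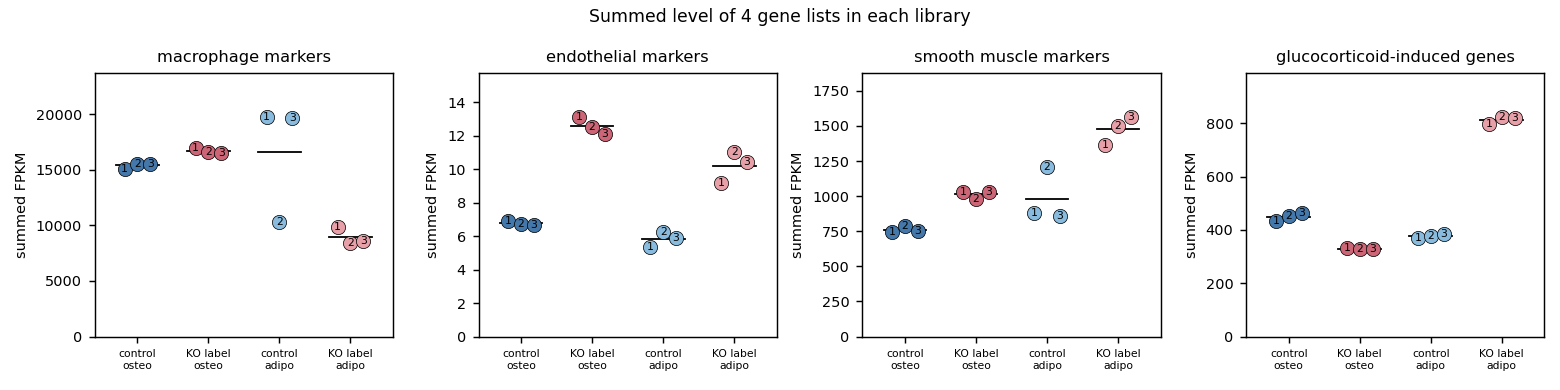
Summed FPKM (vertical axes, from 0) of 14 macrophage, 9 endothelial and 5 smooth muscle markers and 12 glucocorticoid-induced genes in each library, by group, with replicate numbers on the points and group means as lines. Endothelial sums are higher in knockout-labelled libraries in both media, and the macrophage sum of control adipogenic library 2, 10336, lies near the knockout-labelled adipogenic ones.

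Across the 12 libraries, Pearson's r of log2(FPKM + 1) with Ptgs2 was 0.914 for Pla2g4a, the highest among the members, and 0.698 for Ptges. Among all tested genes the 5 most like Ptgs2 were Slc38a10 (0.957), Hnrnph2 (0.956), Sh2d1b1 (0.949), Prdx6 (0.949) and Tapt1 (0.948). For Ptgis they were Lrrk1 (0.981), Axl (0.980), Pmepa1 (0.963), Mast4 (0.962) and Gm4864 (0.962), and among the members r with Ptgis ran from -0.667 for Pla2g4a to 0.601 for Hpgd. These values describe 12 points in 4 groups that share their libraries and group differences.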

How the data were processed

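Bone marrow MSCs were profiled by RNA-seq in 12 libraries, 3 in each of 4 groups taken from the sample labels. The authors deposited FPKM per gene, and the submitters' processing notes name Bowtie 0.12.2 and mm9 whereas the study's reporting summary names HISAT2 and Ballgown. The annotation, the use of strand and gene filters are not given in the sources used here. Symbols came from GENCODE M21 (GRCm38) for 54409 of the 54532 identifiers (99.8%). Fragments were recovered from the steps between values and the exonic lengths, with 98.2% to 98.4% of values under 30 fragments whole within 0.02. Per library 17496343 to 21099588 fragments fell on genes, 3 fragments on 1 kilobase equal 0.143 to 0.185 FPKM, and intervals cover the spread between libraries or, for fragments, counting error only.

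Values were analysed as log2(FPKM + 1), a scale that understates changes of low genes, in R 4.3.3 with limma 3.58.1. The fit had a mean-variance trend and a mean for each group over all 12 libraries, with Benjamini-Hochberg adjustment over 12871 genes at an FPKM of 1 or more in 3 or more libraries and a threshold of 0.05. Groups were compared as knockout minus control in each medium, as the difference of those differences, and as adipogenic minus osteogenic medium in each genotype. Genes below the filter had exact permutation tests in scipy 1.17.1. The fit was tested on simulated data. The members and lists were chosen with earlier results of these data known. All 10 members are named, other pathway genes where they passed, up to 6 a comparison by size, and the 5 genes most like Ptgis and Ptgs2. The pathway list was written from general knowledge, and Ptgr3 was not matched. Alternatives were a pseudocount of 0.1, no filter, TPM, median-ratio scaling, a replicate block, only the compared libraries, no trend, voom on recovered fragments and each library left out. Promoters came from RefSeq on GRCm38.p6.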

Additional observations from a re-analysis of the deposited data

Results flagged for a closer look

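The genotype difference of Pla2g4a, the phospholipase that releases arachidonate, differed between the media. It was 0.13 in osteogenic and -0.63 in adipogenic medium on the log2(FPKM + 1) scale, so that the 2 values differed by -0.76 (limma interaction, adjusted p = 0.00294), and adjusted p lay between 1.63e-05 and 0.0103 over the 12 fits without 1 library.

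The genotype difference of Ptgs2, which encodes COX-2, also differed between the media. It was 0.31 in osteogenic and -1.0 in adipogenic medium, and the 2 values differed by -1.31 (limma interaction, adjusted p = 0.0381). Without control adipogenic library 2 it was -1.73 (limma adjusted p = 3.36e-06), and in the other 11 fits without 1 library it did not pass, with an adjusted p of up to 0.0838. Ptgis was not tested for this difference, because it was chosen by its genotype differences.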

How the results depend on the processing

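Counts of members passing changed with several settings. For the genotype difference in osteogenic medium (1 of 7), 3 passed with only the compared libraries (Ptgs2, Hpgd and Ptger2) and 0 with the replicate block, and 0 to 1 with a library left out. In adipogenic medium (4 of 7), 2 passed without the filter, 2 as TPM, 1 with only the compared libraries and 1 to 6 with a library left out. For the difference between the media (2 of 7), 1 passed without the filter and 1 to 5 with a library left out. The counts for the medium here, unlike those above, include Ptgis. For the medium in controls (5 of 8), 3 passed without the filter, 0 with only the compared libraries and 1 to 6 with a library left out. In knockout-labelled libraries (3 of 8), 1 passed without the filter and 1 to 3 with a library left out. Of the other pathway genes, only the compared libraries gave 12 in place of 6 for the genotype in osteogenic medium, 8 in place of 15 in adipogenic medium and 3 in place of 14 for the medium in controls, where 7 to 20 passed with a library left out, and TPM gave 10 in place of 16 for the medium in knockout-labelled libraries. Median-ratio scaling left all counts as they were, since the deposited values had that scaling, and TPM shifted the median of all genes to 0.138 (genotype, adipogenic), 0.159 (difference between media) and -0.101 (medium, controls). Cause was not tested apart from the fewer libraries or changed filter by construction.

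Differences near 0 changed sign: Ptges in osteogenic medium was 0.00 and -0.01 as TPM, and with a library left out it ranged from -0.05 to 0.09, Ptger4 there from -0.06 to 0.01, Hpgd between the media from -0.09 to 0.39, and for the medium in knockout-labelled libraries Ptges from -0.08 to 0.42 and Ptgis from -0.00 to 0.13. The Ptgis genotype differences were 1.09 and 1.24 in osteogenic and 2.02 and 2.42 in adipogenic medium with a pseudocount of 0.1 and with voom.

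Correlations of same-numbered deviations ranged from -0.286 to 0.466, both in the adipogenic genotype comparison. With 3 libraries in a group they can neither show nor exclude that replicate numbers pair the libraries. With the replicate block 744 genes passed in osteogenic medium in place of 1170, and Ptger2 did not. Depth limits Ptgds, with at most 7 fragments a library.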
